A study of Mus musculus with 8 samples.

Results

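Open chromatin was compared between 0h and 6h of Klf4 induction in mouse acute myeloid leukaemia cells, using the 4 ATAC-seq libraries of these times out of 8 in the series. Peaks on chromosomes 1 to 19 and X of the 4 lists were merged where they overlapped by at least 1 bp, which gave 27953 regions. A region counted as gained at 6h if it had a peak in each 6h list but in no 0h list, and as lost if only the 0h lists, and both of them, held it. By this rule 605 regions were gained and 764 were lost, which is 2.16% and 2.73% of all merged regions, and 10689 regions were called in all 4 lists.

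The study asked how chromatin accessibility changes while induced Klf4 eliminates leukaemia cells. ATAC-seq uses a transposase that cuts open DNA, so that reads pile up where regulatory DNA is not packed in nucleosomes. Both groups were MLL-AF9 leukaemia cells from bone marrow with Klf4 under doxycycline control (TetO-Klf4), sorted as GFP+ cells from leukaemic mice; the cell line field of the labels reads C57BL/7. The 0h group and the 6h group differed by time alone in the labels, each had 2 libraries, and doxycycline at 0h is neither stated nor denied in the labels. Cells without the Klf4 construct were not analysed here, so the passage of time in doxycycline and the action of Klf4 cannot be told apart. The labels give neither age nor whether the 2 libraries of a time came from separate mice, so a spread between replicates may be technical.

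Klf4 is a zinc-finger transcription factor that binds GC-rich CACCC-type DNA and, in blood, is known for its part in the monocyte lineage. MLL-AF9 is a fusion oncoprotein that keeps a self-renewal programme of genes such as Hoxa9 and Meis1 active in myeloid progenitors. A factor that enters the nucleus can open a closed site, act at a site that is already open, or lead to closing, and a peak list records only which sites were open enough to be called.

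The libraries were uneven. Peaks numbered 21756 in 0h replicate 1, 15638 in 0h replicate 2, 17324 in 6h replicate 1 and 18068 in 6h replicate 2. A background was solved from the deposited fold and p-value of each peak, and the lowest was divided by the narrowest peak width of the list. This gave 2.67 and 1.501 tags per kb in the 0h libraries and 2.345 and 2.585 in the 6h libraries. By this measure the second 0h library was the shallowest and the first the deepest. The first 0h library was close to 6h replicate 2 by it. The median pile-up in regions called in all 4 lists had the same extremes, with 28 and 13 tags at 0h and 19 and 20 at 6h. It was not divided by the narrowest peak width, which was 185 and 125 bp at 0h and 146 bp in both 6h libraries. The gap in tags can therefore overstate the gap in depth. By tags per kb, a lost region had to be called in the shallowest library, and a gained region had to be missed in the deepest. Of 8 loci of myeloid leukaemia cells (Ptprc, Spi1, Itgam, Kit, Hoxa9, Meis1, Mpo and Cebpa), 8, 6, 7 and 7 had a peak within 10 kb in 0h replicates 1 and 2 and 6h replicates 1 and 2. Loci of other cell types were also called in every library, with 11, 10, 10 and 10 of 16 B lineage markers, 10, 7, 8 and 6 of 18 T and NK markers, 6, 3, 5 and 5 of 16 erythroid markers, 12, 10, 9 and 10 of 16 megakaryocyte markers and 9, 3, 6 and 5 of 16 stromal and endothelial markers. The shallowest library had the fewest stromal, erythroid and myeloid leukaemia loci. T and NK loci were fewest in 6h replicate 2 and megakaryocyte loci in 6h replicate 1. The part of other cells in the regions below was not tested.

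Some of the members lay on promoters, and 6 of these are shown because they are the 3 gained and the 3 lost promoters with the strongest peaks. The letters are the 250 bases before the RefSeq start (GRCm38.p6), 5′ to 3′ on the strand of the gene, and capitals mark CACCC or its reverse complement GGGTG. Gained were Dhx36 (chr3:62506989-62507238, minus strand), which encodes a helicase that unwinds G-quadruplexes, Stk16 (chr1:75210579-75210828, plus strand), which encodes a serine/threonine kinase, and Il4ra (chr7:125552021-125552270, plus strand), the alpha chain of the interleukin-4 receptor. Lost were Tpd52l1 (chr10:31445959-31446208, minus strand), Scnn1g (chr7:121734229-121734478, plus strand), which encodes a subunit of the epithelial sodium channel, and Mrpl11 (chr19:4962056-4962305, plus strand), which encodes a mitochondrial ribosomal protein.
Dhx36: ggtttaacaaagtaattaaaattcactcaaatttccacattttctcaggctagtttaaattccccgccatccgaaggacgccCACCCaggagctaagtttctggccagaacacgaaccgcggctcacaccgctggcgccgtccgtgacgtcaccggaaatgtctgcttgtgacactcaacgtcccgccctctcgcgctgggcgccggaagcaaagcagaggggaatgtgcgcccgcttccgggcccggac
Stk16: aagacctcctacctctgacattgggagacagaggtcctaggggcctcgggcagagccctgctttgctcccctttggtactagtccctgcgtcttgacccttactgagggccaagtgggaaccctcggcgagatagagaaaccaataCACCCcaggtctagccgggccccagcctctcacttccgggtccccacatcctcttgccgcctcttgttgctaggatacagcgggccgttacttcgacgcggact
Il4ra: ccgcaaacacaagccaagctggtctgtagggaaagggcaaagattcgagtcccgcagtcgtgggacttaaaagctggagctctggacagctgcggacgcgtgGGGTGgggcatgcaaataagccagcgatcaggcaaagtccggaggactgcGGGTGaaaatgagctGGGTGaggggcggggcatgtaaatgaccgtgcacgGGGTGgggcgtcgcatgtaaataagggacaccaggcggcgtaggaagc
Tpd52l1: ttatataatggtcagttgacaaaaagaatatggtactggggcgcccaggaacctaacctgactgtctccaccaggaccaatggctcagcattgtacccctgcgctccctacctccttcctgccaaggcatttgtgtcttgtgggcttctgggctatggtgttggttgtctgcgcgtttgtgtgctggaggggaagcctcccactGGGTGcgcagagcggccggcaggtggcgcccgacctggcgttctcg
Scnn1g: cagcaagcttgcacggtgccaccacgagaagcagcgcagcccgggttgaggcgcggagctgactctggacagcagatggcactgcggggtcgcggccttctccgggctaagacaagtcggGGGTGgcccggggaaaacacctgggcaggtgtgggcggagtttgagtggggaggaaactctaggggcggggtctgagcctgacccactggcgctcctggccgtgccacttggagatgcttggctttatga
Mrpl11: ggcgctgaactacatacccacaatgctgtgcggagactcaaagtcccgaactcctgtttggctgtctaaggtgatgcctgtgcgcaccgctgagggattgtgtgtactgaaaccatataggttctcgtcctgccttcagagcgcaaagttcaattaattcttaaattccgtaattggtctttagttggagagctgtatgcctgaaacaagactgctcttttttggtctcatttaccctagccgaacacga
Il4ra held 4 of these pentamers, Mrpl11 held 0 and the other 4 held 1 each. A match is a run of letters and not a shown binding site.

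Over all promoters under a member, the intervals of the share with CACCC included the share at promoters of regions called in all 4 lists. The motif CACCC, on either strand, occurred in 59 of 92 promoter windows that a gained region overlapped (64.1%, Wilson 95% interval 54.0 to 73.2) and in 55 of 92 under lost regions (59.8%, 49.6 to 69.2). It occurred in 56.4% of 8249 windows under regions called in all 4 lists and in 52.1% of all 32585 promoter windows. The longer core CCACNCCC, which holds CACCC where N is A or C, occurred in 17.4% of gained, 21.7% of lost, 22.5% of shared and 15.96% of all windows. The GC box GGGCGG, the letters that SP factors are known for, occurred in 56.5% of gained windows (46.3 to 66.2), 38.04% of lost windows (28.8 to 48.2), 67.8% of shared windows and 32.9% of all windows. The median GC content was 59.4% for gained, 55.4% for lost, 62.4% for shared and 52.4% for all windows, so windows richer in G and C also held the GC box more often. The 92 gained windows belonged to 84 genes and the 92 lost windows to 85, so not all windows were independent. The intervals of these shares may therefore be too narrow. Intervals here and below cover counting error only.

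At the Klf4 gene itself (mm10, chromosome 4, 55527137 to 55532475) no region was gained or lost. A peak inside the gene (chr4:55530055-55530940) was called in all 4 lists, with folds of 6.42 and 6.88 in the 0h libraries and 7.78 and 7.72 in the 6h libraries, where fold is the authors' ratio of summit pile-up to local background. Its percentile of fold among the regions called in all 4 lists was 6.94 and 22.8 in the 0h libraries and 23.9 and 22.5 in the 6h libraries, and the groups overlapped (difference 8.33, SE 11.2, adjusted p = 0.993 by limma). A second region over an end of the gene (chr4:55532459-55533024) was called in 0h replicate 1 and both 6h libraries, at folds of 5.59, 5.57 and 5.58. Here and below, the end of a gene means either border of the gene, its start or its finish, because strand was not used. A peak measures access and not expression, so it does not check the induction.

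Few regions parted the 4 lists by time. Of the 27953 regions, 38.2% were called in all 4 lists, 3852 in 3 lists and 9139 in 1 list, of which 4462 were in 0h replicate 1 alone. Exactly 2 lists held 4273 regions. Of these 1369 (32.04%) were gained or lost, and 2904 were called in 1 list of each time. If the 4 lists were interchangeable, a share of 0.333 would be gained or lost, and the share seen was no higher. The lists were uneven, so this reference is a rough guide only. Just outside the rule lay 1932 regions that both 6h lists and 0h replicate 1 held, against 332 that both 6h lists and 0h replicate 2 held.

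Gained and lost regions were weak peaks in the lists that held them. The median summit pile-up of gained regions was 9 and 10 tags in 6h replicates 1 and 2, against 19 and 20 tags in regions called in all 4 lists. Lost regions had a median of 10 and 7 tags in 0h replicates 1 and 2, against 28 and 13. In percentiles of fold within each whole list, the median was 23.7 and 25.8 for gained regions, 32.05 and 23.4 for lost regions, and between 64.2 and 73.8 for regions called in all 4 lists. Regions called in 1 list of each time had medians of 21.0 to 29.5, close to those of gained and lost regions. The lower of the 2 percentiles reached 50 in 22 gained and 35 lost regions, and 75 in 1 gained and 0 lost regions.

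**Figure D1:**
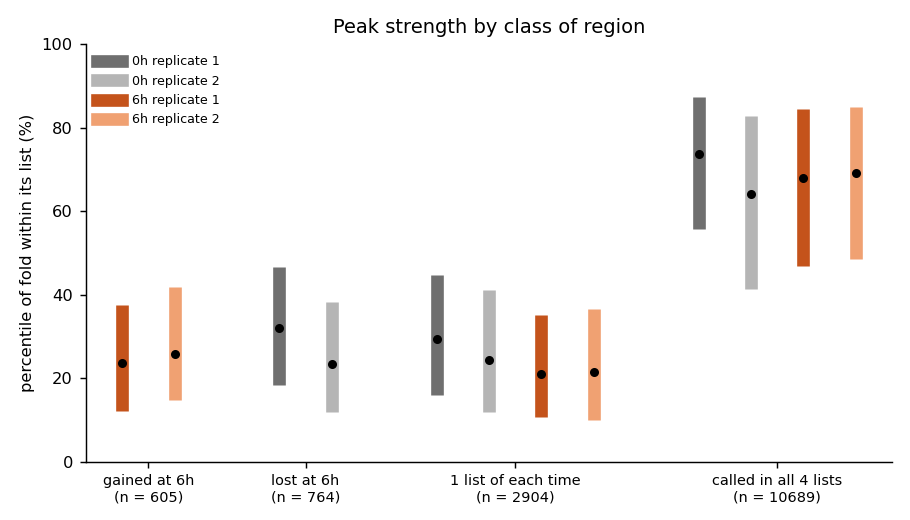
Percentile of fold within each whole peak list (vertical axis, percent) for 4 classes of merged regions, 1 bar per library for the middle part of the values, from quartile 1 to quartile 3, with the median as a black point. Gained and lost regions sit with the regions called in 1 list of each time, with medians of 21.0 to 32.05, and below regions called in all 4 lists, with medians of 64.2 to 73.8.

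The lists' own limit runs through these members. The lowest −log10 q of the 4 lists lay between 2.005 and 2.013. The weakest gained regions just inside it lay near Got1 and Nsmaf, with −log10 q of 2.04 in 6h replicate 1 and a pile-up of 5 tags there. Just outside the rule, a region near Ndufa8 was called in both 6h lists (−log10 q 10.5 and 5.35) and failed only through a peak of 4 tags in 0h replicate 2 at −log10 q of 2.05. Among lost regions, one near Gm52140 was just inside with 2.04 and 4.15, and one near Ola1 (2.92 and 3.89) was just outside through a peak in 6h replicate 2 at 2.07. A −log10 q of at least 5 in both lists was met by 314 gained regions (51.9%) and 361 lost regions (47.2%).

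The strongest gained region covered the start of Dhx36 (chr3:62506845-62507155), with folds of 13.7 and 12.7 and pile-ups of 20 and 19 tags (exact Poisson 95% intervals 12.2 to 30.9 and 11.4 to 29.7), and no peak at 0h. Second was a region 16.4 kb from Apbb1ip (chr2:22739551-22739718), with folds of 13.3 and 10.4 on 25 and 18 tags; Apbb1ip encodes a Rap1 partner that helps activate leukocyte integrins. Next was a region inside Itgb2 (chr10:77550953-77551274), 14.6 kb from its end, with folds of 10.4 and 10.4 on 23 and 23 tags; Itgb2 encodes the beta 2 integrin chain of myeloid cells. A region inside Egln2, which encodes a prolyl hydroxylase of HIF proteins, had folds of 10.2 and 9.71 on 18 and 16 tags. Others of the 12 lay inside Tcf20 (10.1 and 9.35), beyond 100 kb from Acvr2a at 178 kb (10.4 and 9.31), near Mapk1ip1l (9.60 and 9.26), inside Slc36a3 (9.14 and 10.9), inside Ccbe1 (11.5 and 8.81), 235 kb from Insc (9.01 and 8.71) and near Dynlt1b (8.63 and 10.2). In these 12 the pile-ups ran from 11 to 25 tags. Of the 12, 7 were called again in all 4 later libraries, and the 2 near Apbb1ip and Insc were called in none of them. The pile-up in the 0h libraries is not given for a site without a peak, so these folds have no counterpart at 0h.

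The strongest lost region lay inside Ppm1h (chr10:122815191-122815417), which encodes a protein phosphatase, with folds of 10.0 and 10.4 on 17 and 14 tags in 0h replicates 1 and 2. A region inside App (chr16:85000307-85000682), the amyloid precursor protein gene, had folds of 9.71 and 9.47 on 17 and 13 tags. A region 123 kb from Fscb followed with 10.0 and 9.26 on 14 and 10 tags. In all 3 the shallower library had the lower pile-up. The others lay near Glipr1l3 (folds of 9.56 and 10.2), over the start of Tpd52l1 (11.4 and 9.07), 57.8 kb from Klf14 (9.66 and 8.79), inside Mtrex with Plpp1 as the nearest gene end (8.98 and 9.10), near Gpcpd1 (8.81 and 8.53), 5.03 kb from Oprm1 (8.93 and 8.42), 52.3 kb from Pthlh (10.0 and 8.42), inside Hunk (8.61 and 8.17) and at Scnn1g (9.61 and 8.16). Klf14 belongs to the same family as Klf4, and its region was called again in both 12h libraries and in neither 24h library. Of these 12, 2 were called in all 4 later libraries and 1, near Fscb, in none.

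**Figure D2:**
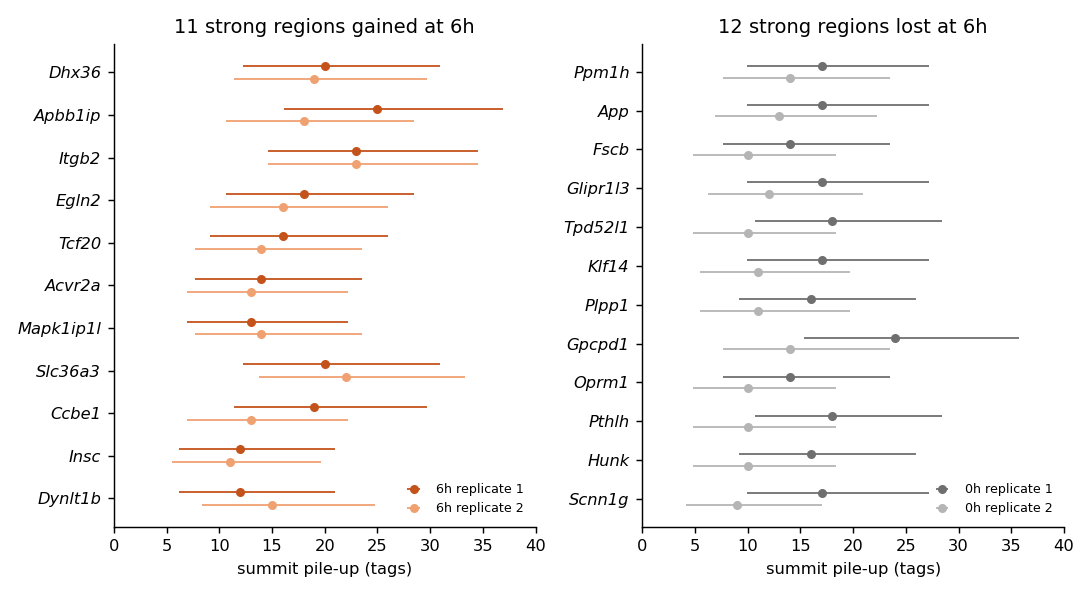
Summit pile-up in tags (horizontal axis) of 11 of the 12 strongest gained regions in the 2 libraries of 6h (left) and of the 12 strongest lost regions in the 2 libraries of 0h (right), named by the nearest gene; lines are exact Poisson 95% intervals, which cover counting error only. Gained regions had 11 to 25 tags, and lost regions had fewer tags in 0h replicate 2 than in 0h replicate 1 at each of the 12.

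One gained region had far more reads than the rest and was chosen here after its values were seen. It lay at chr14:19416134-19416310, 118 kb from Gm2244, with pile-ups of 108 and 135 tags but folds of only 3.55 and 4.0, because the local background was high (29.7 tags in 6h replicate 1). It ranked 604 of the 605 gained regions by percentile.

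Several genes had more than 1 member. Trps1, which encodes a GATA-type repressor, had 2 gained regions inside it, with folds of 10.9 and 8.03 at the first and 9.90 and 7.67 at the second. Rapgef1, which encodes an exchange factor for Rap1, had a gained region 0.115 kb from its end (7.70 and 10.2) and a second inside it (5.13 and 7.06). Abcc4, a nucleotide exporter gene, and Rnf169 also had 2 gained and 0 lost regions each. Zmiz1, which encodes a transcriptional co-regulator, had 2 gained and 2 lost regions among its 13 regions. Pthlh, which encodes the parathyroid hormone-like hormone, had 3 lost regions at 52.3, 46.7 and 37.4 kb, with folds of 10.0 and 8.42, 9.82 and 7.58, and 6.77 and 7.18. Jazf1 had 3 lost regions inside it, and App, Plpp1 and Mrpl11 had 2 each. The second lost region of App had folds of 8.13 and 7.66, and both regions of Mrpl11 were called again in all 4 later libraries.

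Gained regions lay near a gene end, start or finish, more often than lost regions did. Of the gained regions 115 (19.01%, Wilson 95% interval 16.1 to 22.3) had their summit within 1 kb of the end of a protein-coding gene, against 95 lost regions (12.4%, 10.3 to 14.96). The difference was 6.57 percentage points (95% interval 2.71 to 10.5, counting error only). The share was 18.4% of regions called in 1 list of each time, 61.3% of regions called in all 4 lists and 34.0% of all regions, so members of both kinds were mostly distal. The median distance was 10.1 kb for gained regions, 16.4 kb for lost regions and 0.22 kb for regions called in all 4 lists. Near a RefSeq start lay 17.8% of gained and 13.6% of lost regions, with intervals that overlapped (14.9 to 21.0 and 11.3 to 16.2). The lists themselves differed in this share, from 40.1% of peaks in 0h replicate 1 to 47.2% in 0h replicate 2, with 46.8% and 45.8% at 6h, and the part of this in the difference was not tested. The difference turned to -2.13 points without 6h replicate 1 (95% interval -4.50 to 0.157) and to -2.16 without 6h replicate 2 (-4.58 to 0.232). It was 22.0 without 0h replicate 1 and 6.24 without 0h replicate 2. Without a 6h library a gained region rests on 1 list and a lost region on 2, and without a 0h library the reverse. These differences therefore compare unlike classes. The interval of the main difference, above, did not include 0. With all 4 libraries the difference was 3.14 points, with an interval from -1.30 to 7.67, where only peaks with −log10 q of at least 5 were used.

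The later libraries, which the rule did not use, held more of the gained than of the lost regions. Gained regions had a peak in 64.6% and 54.9% of cases in 12h replicates 1 and 2 and in 39.7% and 33.2% in 24h replicates 1 and 2. Lost regions had one in 58.0%, 46.6%, 25% and 21.7%. Gained was above lost in 4 of 4 libraries, by 10.3 percentage points on average (6.64 to 14.7; exact two-sided sign-flip permutation test over the libraries, p = 0.125, which is the smallest the design allows). Regions called in 1 list of each time lay between those values, at 60.3%, 51.7%, 30.3% and 29.0%, and regions called in all 4 lists were at 98.1%, 97.1%, 91.7% and 91.7%.

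**Figure D3:**
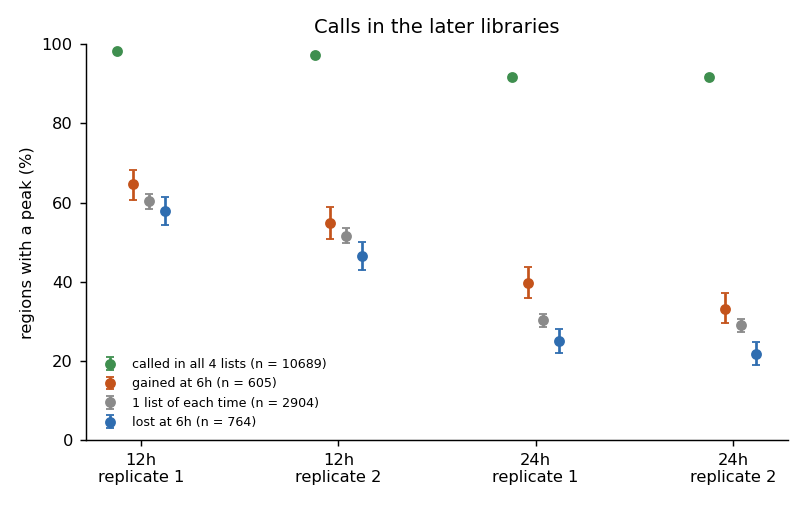
Share of regions with a peak (vertical axis, percent) in each 12h and 24h library for 4 classes defined on the 0h and 6h lists; bars are Wilson 95% intervals. Gained regions were called more often than lost regions in each library, by 6.64 to 14.7 points, and both far less often than regions called in all 4 lists.

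Call by call, 90 gained and 55 lost regions had a peak in all 4 later libraries, and 103 gained and 200 lost regions had one in none. The 55 lost regions with a peak in all 4 later libraries were thus missed at 6h alone. The order of gained and lost turned without 6h replicate 1 (-22.0 points) and without 6h replicate 2 (-19.9 points), and the difference was 44.6 points without 0h replicate 1 and 34.7 without 0h replicate 2. Without a 6h library a gained region rests on 1 list and a lost region on 2, and without a 0h library the reverse. These differences therefore compare unlike classes and cannot tell whether the order depends on that library. Leaving out 1 library turns regions that fail in that library into members, so the counts moved as well. They became 2545 gained and 2176 lost without 0h replicate 1, 937 and 5235 without 0h replicate 2, 2490 and 1508 without 6h replicate 1, and 2113 and 1611 without 6h replicate 2. At equal list length, 658 were gained and 605 were lost, so that gained regions made up 52.1% of members against 44.2%.

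Genes were next read by lists of known function, each region being counted for the protein-coding gene whose end was closest, up to a distance of 100 kb. Of 13093 genes with a region, 534 (4.08%) had a gained and 634 (4.84%) had a lost region. Over the 16 lists 40 genes had either, 17 a gained and 23 a lost region. The count rose to 97 without 0h replicate 1, 132 without 0h replicate 2, 102 without 6h replicate 1 and 83 without 6h replicate 2. It was 19 where a region had to lie within 10 kb. The shares over all genes with a region moved too. They were 17.2% gained and 13.8% lost without 0h replicate 1, and 6.21% and 28.2% without 0h replicate 2. Without 6h replicate 1 they were 15.1% and 9.59%, and without 6h replicate 2 they were 13.4% and 10.2%. Within 10 kb they were 2.55% and 2.42%. Counts of single lists with 1 library left out, given below, are to be read against these shares.

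Granulocyte genes held gained and no lost regions. Of 14 such genes with a region, 4 (28.6%) had a gained and 0 had a lost region: Itgb2, described above, Mmp8, Ltf and Cebpa. Mmp8, the neutrophil collagenase gene, had one inside it 0.945 kb from its end (folds of 6.49 and 6.42 on 8 and 10 tags), which was called in all 4 later libraries. Ltf, the lactoferrin gene, had one 3.62 kb away (9.32 and 6.02 on 12 and 8 tags). Cebpa, which encodes the C/EBP alpha factor of granulocyte differentiation, had one 5.14 kb away (5.74 and 7.14 on 9 and 13 tags). Without 6h replicate 1 the gained count was 7 (50%, against 15.1% of all genes). Without 0h replicate 2 the lost count was 6 (42.9%, against 28.2% of all genes).

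Monocyte, integrin and self-renewal genes had both kinds. Of 29 monocyte and macrophage genes with a region, 2 had a gained region, 22.6 kb from Irf8 (8.30 and 7.42 on 14 and 12 tags) and 0.022 kb from Ly6c2 (5.39 and 7.17). Another 3 had a lost region, among them one 47.2 kb from the Fc receptor gene Fcgr1 (7.38 and 7.42) and one 5.61 kb from Tlr4 (5.03 and 7.86). Of 19 integrin and adhesion genes, Apbb1ip and Itgb2 had a gained region and 1 had a lost one. Of 26 genes of the MLL-AF9 self-renewal list, 4 had a lost region, among them Mef2c (8.33 and 5.89 on 13 and 6 tags), Cdk6 (5.99 and 5.51) and Cd34 (7.29 and 4.82). The region of Mef2c was called in all 4 later libraries. Lmo2 had a gained region 2.16 kb away (4.65 and 5.40 on 6 and 8 tags), which was called in none of them. Without 0h replicate 2, the lost count of the self-renewal list was 17 (65.4%, against 28.2% of all genes). Without 6h replicate 1 its gained count was 13 (50%, against 15.1% of all genes). For monocyte genes these counts were 16 and 11 (55.2% and 37.9%), and for integrin and adhesion genes 7 and 5 (36.8% and 26.3%). At equal list length, Lmo2 no longer had a gained and Tlr4 no longer a lost region, but other genes entered. The self-renewal list then had 2 genes with a gained region, Myc and Zeb2. It had 6 with a lost one (24%, against 4.10% of all genes), with Jmjd1c and Runx1 new among them. Monocyte genes had 3 with a gained and 3 with a lost region, and integrin and adhesion genes 2 and 0.

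Death, inflammatory and early response genes were also split. Of 34 apoptosis genes with a region, Casp6, an effector caspase gene, had a gained region 0.062 kb from an end, start or finish. The region had folds of 7.13 and 7.43 on 12 and 13 tags and was called in all 4 later libraries. Another 4 had a lost region, among them Casp1 (7.65 and 5.87) and, at 14.5 kb, Tnfsf10, the gene of the death ligand TRAIL (5.34 and 6.13); at equal list length Tnfsf10 had none. Of 24 inflammatory and NF-kB genes, Tnf had a gained region inside it (7.57 and 5.76 on 15 and 11 tags). Tnfaip3 at 38.3 kb (5.10 and 6.74), Irak3 at 19.04 kb (5.07 and 6.16) and Nfkbia at 6.59 kb (6.29 and 4.82), which encode inhibitors of the pathway, and the chemokine gene Cxcl10 (10.2 and 4.67), had a lost one. Tnfaip3 and Nfkbia had none at equal list length, but Nfkbiz and Ccl3 then had one. The lost count of the list was again 4 (18.2%, against 4.10% of all genes), and 2 genes, Nfkb1 and Tnf, had a gained region. Within 10 kb Nfkbia alone was left with a lost region. Of 23 immediate early and AP-1 genes, Jun at 23.5 kb (5.10 and 7.04), Ier3 at 33.5 kb (4.99 and 7.13) and Zfp36 at 0.128 kb (4.71 and 4.30 on 20 and 19 tags) had a gained region and Fosl1 (5.62 and 6.42) a lost one. Of the 3 gained, Zfp36 alone was left at equal list length and within 10 kb. Of 21 hypoxia genes, Egln2 and P4ha1 (6.09 and 5.46) had a gained and Ddit4 (6.62 and 6.25) a lost region. Without 0h replicate 2 the lost counts of the apoptosis, NF-kB and AP-1 lists were 11, 9 and 10. These were 33.3%, 37.5% and 43.5%, against 28.2% of all genes. Without 6h replicate 1 their gained counts were 3, 5 and 6, or 9.09%, 20.8% and 26.1%, against 15.1% of all genes. For the hypoxia list the lost count was 10 without 0h replicate 2 (47.6%). Its gained count was 5 (23.8%) without 0h replicate 1 or 6h replicate 1, against 17.2% and 15.1% of all genes.

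The remaining lists held few. Of 34 cell cycle genes with a region, 0 had a gained and 2 had a lost region, Ccne1 (6.40 and 6.32) and Cdk6. Of 20 KLF and SP genes, Klf14 alone had a member, a lost region. The 10 interferon response genes had none. With 1 library left out, the cell cycle list had 1 to 7 genes with a gained region and up to 12 with a lost one. The 7 without 6h replicate 1 were 20.6%, against 15.1% of all genes. Without 0h replicate 2 the 12 lost were 36.4%, against 28.2%, and without 0h replicate 1 the 8 lost were 23.5%, against 13.8%. The KLF and SP list then had 1 to 3 with a gained region (3 without 0h replicate 1 or either 6h library) and up to 4 with a lost one (4 without either 0h library), and of the interferon genes 2 had a lost region without 0h replicate 2 and 1 a gained one without 6h replicate 2. Among markers of other cell types, 1 of 6 B lineage genes (Bank1, 5.73 and 6.33) and 1 of 10 T and NK genes (Lef1, 4.85 and 5.64) had a gained region. Bcl11b (5.52 and 3.99), the megakaryocyte marker Fli1 (5.08 and 5.36) and the stromal marker Acta2 (8.56 and 5.84) had a lost one, and the 5 erythroid genes had none. With 1 library left out, each of these 5 marker lists had 0 to 4 genes with a gained and 0 to 6 with a lost region. The 4 were T and NK genes without 0h replicate 1 (44.4%, against 17.2% of all genes). The 6 were stromal genes without 0h replicate 2 (54.55%, against 28.2% of all genes).

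**Figure D4:**
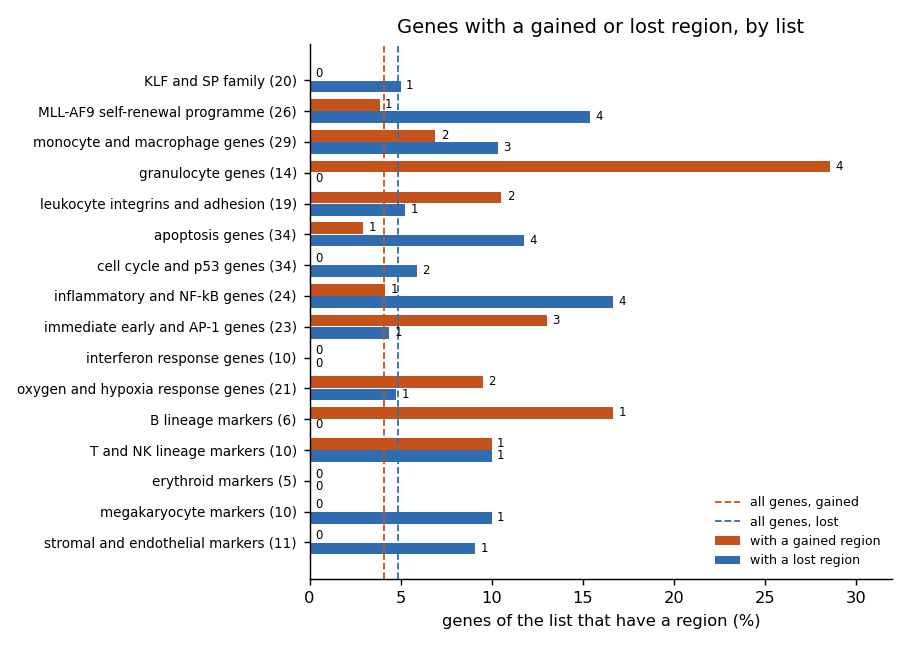
Share of the genes of each list (horizontal axis, percent; number of genes with a region in brackets) that had a gained or a lost region at 6h, with the number of genes beside each bar. Dashed lines are the shares over all 13093 genes with a region, 4.08% gained and 4.84% lost; each bar stands for 4 genes or fewer, with 4 of 14 granulocyte genes the highest share.

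In the regions called in all 4 lists, no difference in strength passed the test. Each library's folds were ranked among the 10689 shared regions and the percentiles compared with limma. No region was higher (0%) and none lower (0%) at an adjusted p of at most 0.05, and the smallest adjusted p was 0.993. At an unadjusted p under 0.05 there were 176 higher and 176 lower. The count was 0 in each of the other settings as well, including quantile-normalized log2 folds (220 and 225 unadjusted). On simulated percentiles with 200 changed regions, limma called none of them even at 8 replicate SD. On normal scores it recovered 0% at 2 SD, 74.5% at 4 SD and 100% at 8 SD. All simulated regions had the same SD, which real regions need not have, so these shares may overstate the recovery on the real data. On the normal scores of the real ranks limma called 0 (221 and 219 unadjusted). A count of 0 on either scale therefore cannot show that strengths were alike. Replicates differed by a median of 16.2 percentile points at 0h and 13.1 at 6h.

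By groups that do not overlap, 1734 shared regions (16.2%) had both 6h percentiles above both of 0h, and 1699 (15.9%) had both below. If the 4 libraries were interchangeable, such a separation in either direction would have a probability of 0.333. These counts are therefore not evidence of a shift at 6h. Of those higher 64.8% lay within 1 kb of a gene end, of those lower 55.6%, and of those overlapping 61.7%. The median difference was 1.07 percentile points in shared regions near a gene end and -1.55 in those farther away. The near regions had median percentiles of 61.3 and 59.4 at 0h and 61.5 and 61.8 at 6h, and the others 32.3 and 37.2 at 0h and 32.2 and 31.0 at 6h. The 6h medians lay closer to that of 0h replicate 1 than to that of 0h replicate 2 in both sets.

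The 8 shared regions that stood highest at 6h against 0h, by limma's moderated statistic, are given by their percentiles among shared regions in 0h replicates 1 and 2 and 6h replicates 1 and 2. Because they were chosen for not overlapping, the separation is no finding, and each had an adjusted p of 0.993 by limma. A region inside Hif1a (chr12:73907391-73908498), which encodes the oxygen-regulated HIF-1 alpha factor, was at 76.9, 67.8, 98.3 and 97.8, with folds of 12.1, 10.3, 16.4 and 16.1. A region 0.12 kb from Nxf1, the main mRNA export receptor gene, was at 45.5, 59.2, 99.3 and 92.5 (difference 43.6, SE 13.4). A region at Qsox2, which encodes a sulfhydryl oxidase, was at 27.9, 22.4, 95.9 and 83.5, the widest gap of the 8 (64.6, SE 20.3). Regions inside Plekha1 (63.4, 68.6, 99.6 and 93.4) and Spg21 (10.4, 6.25, 59.0 and 75.2) and at Rbm15b (3.81, 4.69, 40.02 and 66.6) followed. Xdh, the xanthine dehydrogenase gene, held one at 3.41, 0.996, 50.7 and 44.7, and one lay 23.7 kb from Ttc7b at 6.53, 2.17, 57.1 and 48.8. All 8 were called in every 12h and 24h library.

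The 8 that stood lowest at 6h included gene-end regions among the strongest at 0h. Krcc1 was at 98.0, 96.9, 63.0 and 61.9, with folds of 15.4, 14.9, 10.95 and 11.03. Cep135, which encodes a centriole protein, was at 99.2, 96.7, 74.6 and 59.7, and Rbbp4, which encodes a histone-binding subunit of chromatin complexes, at 95.7, 98.0, 63.2 and 74.6. Cdk5rap3 was at 95.3, 98.2, 74.4 and 53.8. These 4 lay within 0.118 kb of a gene end, and the other 4 were distal. A region inside Map2k5, which encodes the kinase above ERK5, was at 46.4, 83.1, 5.07 and 6.36. One 8.84 kb from Ldha, the lactate dehydrogenase A gene, was at 30.0, 79.4, 0.627 and 1.57, one inside Ift80 at 28.1, 31.0, 0.571 and 0.496, and one near Tgds at 57.9, 36.4, 5.20 and 0.669. At Map2k5 and Ldha the 2 libraries of 0h were themselves far apart. The region at Ift80 was called in 1 of the 4 later libraries.

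**Figure D5:**
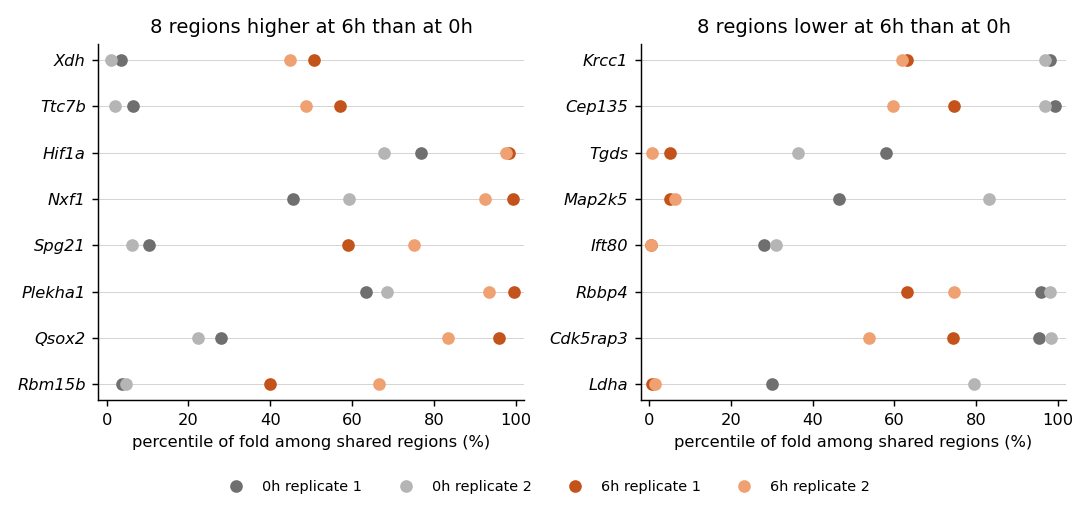
Percentile of fold among the 10689 regions called in all 4 lists (horizontal axis, percent), 1 point per library, for the 8 regions that stood highest (left) and the 8 that stood lowest (right) at 6h against 0h, named by the nearest gene. The regions were chosen for groups that do not overlap, and the points of Ift80 at 6h lie on each other at 0.571 and 0.496.

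Read by list, no list of genes of known function had more than 2 shared regions at an unadjusted limma p under 0.05. Over all 10689 shared regions it was 352. The lists held only 2 to 42 shared regions each, so counts this small cannot tell them apart. A count of 2 was reached by the 25 inflammatory and NF-kB regions and by the 27 hypoxia regions. Of 33 regions at immediate early and AP-1 genes, 7 were higher without overlap and 2 lower (21.2% and 6.06%, against 16.2% and 15.9% of all), with a median difference of 3.31 percentile points against 0.047 over all shared regions. Of 28 regions at apoptosis genes 4 were higher and 1 lower (14.3% and 3.57%), while the median difference was -1.32. Of 22 regions at KLF and SP genes 0 were higher and 2 lower, and of 30 at self-renewal genes 4 and 3, with a median of -4.97. At 20 integrin and adhesion regions 2 were higher and 3 lower, with a median of -8.26.

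Of single shared regions at list genes, the following were chosen after their values were seen, and each had an adjusted p of 0.993 by limma. A region inside Nfkbia, which encodes the NF-kB inhibitor, lay 720 bp from an end of the gene, start or finish. It had percentiles of 5.29 and 0.58 at 0h and 24.8 and 19.2 in the 6h libraries. The same gene had a lost region 6.59 kb away, on 9 and 5 tags at 0h, which was not found at equal list length. Whether the regions of this gene went one way cannot be told from these 2. A region 23.8 kb from Fosl2, an AP-1 gene, was at 8.31 and 1.77 at 0h and 36.5 and 46.0 in the 6h libraries. One inside Ccnd3, which encodes cyclin D3, was at 3.33 and 21.2 at 0h and 73.4 and 54.9 in the 6h libraries. A region at Cxcr4, which encodes the receptor that holds cells in bone marrow, was at 34.8 and 28.3 at 0h and 1.23 and 7.95 at 6h.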

How the data were processed

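ATAC-seq peak lists of 8 libraries, 1 per sample, were used; the 12h and 24h lists served only to ask whether members were called again. The submitters' processing notes name BWA, SAMtools, MACS2 and mm10; their versions and settings, duplicate removal and transposase shifting were not given in the sources used here. Each peak carries, as the authors deposited it, a fold enrichment, a linear ratio of summit pile-up to local background with 1 added to both, together with a deposited −log10 p-value and −log10 q-value. An integer score deposited by the authors was not used. Whole-number pile-ups in tags were solved from fold and −log10 p within a tolerance of 0.001, for at least 99.84% of the peaks of each list. Total read counts were not used, so depth is known only through background and pile-up.

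Percentiles of fold were ranked within a whole list for gained and lost regions, and among the 10689 shared regions for the comparison of strength. That comparison used limma 3.58.1 in R 4.3.3 with a mean trend and Benjamini-Hochberg adjustment over all shared regions, and was tested on simulated data. An exact permutation test of 2 against 2 libraries cannot give a p under 0.333. Gene ends were those of 21631 protein-coding genes (GRCm38.p6) without strand or exons, and promoter letters from RefSeq; 359 of 361 list entries matched a symbol. The planned KLF motif search around summits was not run, because no genome sequence was used, and promoter windows were read in its place. Promoter windows on chromosome 18 were not used here.

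Named were Klf4, the 12 gained and 12 lost regions with the highest lower percentile, the 5 genes with most members in each direction, up to 4 genes per list, 8 shared regions higher and 8 lower, and 3 regions on each side of the call threshold, of which some are given. Some regions and genes that this rule takes are not reported here. The members and lists were chosen with earlier results of these data known. Alternatives were stricter peaks, lists of 15638 peaks each, summit windows of 100 bp to each side, 50% cover, absence within 500 bp, other distances, other scales, a replicate block and each library left out.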

Additional observations from a re-analysis of the deposited data

How the results depend on the processing

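The numbers of gained and lost regions stayed within 1.5 times under −log10 q of at least 5, equal list length, summit windows, 50% cover and absence within 500 bp, and moved with single libraries. The members did turn over: at equal list length 63.8% of gained and 53.4% of lost regions were found again, with 658 gained and 605 lost, and at −log10 q of at least 5 it was 51.9% and 47.25%. Gained regions numbered 937 to 2545 and lost regions 1508 to 5235 with 1 library left out. The share near a gene end differed by -2.16 to 22.0 points, and the share called later by -22.0 to 44.6 points, with 1 library left out, so both turned. Leaving out a library enlarges the classes by its construction, since fewer lists must lack or hold a peak. The class of the time left with 1 library then rests on 1 list, and the other class still rests on 2. The turned signs therefore cannot tell whether the differences depend on that library. List genes with a member numbered 83 to 132 with 1 library left out and 19 within 10 kb. The shares over all genes moved as well, to between 6.21% and 17.2% gained and between 9.59% and 28.2% lost with 1 library left out.

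The 24 named gained and lost regions were found again under each setting, which their choice as the strongest members largely fixes, and which leaving out a library cannot change. For the 16 named shared regions the direction held in 181 of 181 alternatives, which their choice for groups that do not overlap partly fixes. Chosen after seeing the data were normal scores, lists without 1 library, and promoters by summit. A replicate block left 0 higher and 0 lower shared regions by limma (197 and 193 at an unadjusted p under 0.05). Same-numbered libraries did not deviate together (correlation -0.03). With 2 libraries per time this cannot decide whether the replicate numbers pair the libraries. Depth limits what can be said of absence: a site with fewer than 4 or 5 tags was not called, the second 0h library was the shallowest, and 2 libraries per time allow no exact p under 0.333.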
